A study of Homo sapiens with 8 samples.

Results

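Retained-intron transcripts are the transcripts of a long-read assembly in which sequence that a reference transcript removes as an intron is kept inside an exon. They were taken here as the transcripts of the combined assembly with the gffcompare class codes m (every intron of the reference transcript is matched or retained) or n (at least 1 intron is retained and not every intron is matched or covered). The rule found 9924 of the 96614 transcripts in the count table, 5095 of class m and 4829 of class n, in 4618 genes. They were measured in the human embryonic stem cell line H1, an established line, as the undifferentiated line (hPSC) and after 5 days of differentiation to ectoderm, endoderm or mesoderm, with 2 libraries per group. Reads came from a PacBio Sequel II instrument. The hPSC were kept in mTeSR1 medium on Matrigel. Ectoderm medium held the inhibitors A83-01, PNU-74654 and Dorsomorphin at 2 µM each, and endoderm medium held WNT3A with 100 ng/ml Activin A. Mesoderm medium held VEGF and BMP4 at 100 ng/ml and bFGF at 10 ng/ml, with 100 ng/ml Activin A during the opening day. All groups came from the same line, and the labels do not say whether repeats were separate cultures, so p-values measure the spread between these libraries, which may be technical.

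Introns are normally cut out by the spliceosome before a transcript leaves the nucleus. Some polyadenylated transcripts keep an intron, and many of these stay in the nucleus (detained introns) or carry an early stop codon that marks them for nonsense-mediated decay. Genes for splicing factors, above all the serine and arginine rich SR proteins, are textbook examples, and so are MAT2A, which makes the methyl donor S-adenosylmethionine, and OGT, which attaches O-GlcNAc sugars to proteins.

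The libraries held from 503840 to 1180888 counted reads, with both ectoderm libraries the deepest. Reads were assigned to transcripts of 4406 and 4650 nt on average in ectoderm and 3765 and 3840 nt in mesoderm, but of 3298 and 3114 nt for hPSC and only 2975 and 3073 nt for endoderm. Transcripts lying wholly inside reference introns, which can stem from unspliced RNA, took 2.77% and 3.10% of counts in ectoderm and 2.06% and 2.29% in mesoderm, but 1.65% and 1.58% for hPSC and 1.06% for both endoderm libraries. Mitochondrial transcripts took 1.06% to 1.32% in ectoderm and mesoderm and 2.06% to 4.50% in hPSC and endoderm. All 9 endoderm markers were highest in endoderm, 8 of 10 ectoderm markers in ectoderm and 8 of 11 pluripotency markers in hPSC, but only 5 of 9 mesoderm markers in mesoderm, where MIXL1 and FOXF1 had no count. The length of the assigned transcripts and the share of intronic transcripts moved with the groups in the same order as several results below. For length, the share of all counts was also compared within length classes and at 1 common length distribution, given below. Otherwise the part of length and of intronic transcripts in those results was not tested. In bulk RNA, more cells of a type and more RNA per cell cannot be told apart.

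The kept sequence itself was examined first, because it shows what a retained intron adds to an mRNA. Of 9695 retained-intron transcripts with a usable reference structure, 9408 held at least 1 whole reference intron inside an exon, in 5869 of them (62.4%) a single one. They covered 9980 different introns, of which 7879 (78.9%) lay between coding exons. For 1793 introns (18.0%) an exon of another GENCODE 29 transcript covered the intron, so that its GRCh38 sequence could be read. In these, 1749 (97.5%) began with GT and ended with AG, 27 had GC and AG, and 3 had AT and AC. Of 1485 such introns between coding exons, 1215 (81.8%) contained a stop codon in the frame of the upstream exon, at a median of 43 nt into the intron. Another 185 had no such stop but shifted the frame, and 85 (5.72%) kept the frame open.

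The sequences below were chosen because their genes carry the abundance and transcript-choice results. All are GRCh38 and read from GENCODE 29 transcripts in transcript orientation, 5′ to 3′. Capitals mark the dinucleotides at the ends of the intron and the first stop codon in the upstream reading frame.
SRSF5, first 60 nt of the 1215-nt intron, chr14:69769252-69769311, plus strand: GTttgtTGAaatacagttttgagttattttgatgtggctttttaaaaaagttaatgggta
OGT, first 60 nt of the 3271-nt intron, chrX:71544636-71544695, plus strand: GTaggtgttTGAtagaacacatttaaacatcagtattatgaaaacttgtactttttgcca
MAT2A, 191-nt intron, chr2:85542374-85542564, plus strand: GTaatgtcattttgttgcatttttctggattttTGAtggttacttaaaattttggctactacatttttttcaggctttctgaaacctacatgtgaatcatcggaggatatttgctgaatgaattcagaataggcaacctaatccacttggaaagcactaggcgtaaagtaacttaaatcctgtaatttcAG
ACADVL, 95-nt intron, chr17:7222082-7222176, plus strand: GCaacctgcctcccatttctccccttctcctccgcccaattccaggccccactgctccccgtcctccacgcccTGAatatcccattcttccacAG
RHOT2, 82-nt intron, chr16:671001-671082, plus strand: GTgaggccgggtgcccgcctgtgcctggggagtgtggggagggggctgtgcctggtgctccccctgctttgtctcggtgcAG
CPNE1, 185-nt intron, chr20:35626382-35626566, minus strand: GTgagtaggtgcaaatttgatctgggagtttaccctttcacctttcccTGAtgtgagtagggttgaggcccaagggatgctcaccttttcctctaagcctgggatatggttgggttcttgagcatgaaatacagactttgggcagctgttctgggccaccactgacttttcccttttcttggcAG
ABCD4, 171-nt intron, chr14:74286530-74286700, minus strand: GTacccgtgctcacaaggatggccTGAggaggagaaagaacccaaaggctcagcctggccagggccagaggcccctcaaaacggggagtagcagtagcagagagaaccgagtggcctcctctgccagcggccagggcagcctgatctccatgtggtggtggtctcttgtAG
The stop codon started at base 7 of the SRSF5 intron, at base 10 in OGT, 25 in ABCD4, 34 in MAT2A, 49 in CPNE1 and 74 in ACADVL. The ACADVL intron began with GC in place of GT. The RHOT2 intron held no in-frame stop, but its 82 nt shifted the frame.

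The median retained intron was shorter than the median intron that the same transcripts spliced. It measured 545 nt, counted over each transcript and intron (n = 15880), against 791 nt for the introns removed by the same transcripts (n = 69540). Introns over 5000 nt made up 2.54% of the retained and 12.5% of the spliced set, whereas introns of at most 300 nt made up 32.1% and 31.3%. The last intron of the reference transcript supplied 13.1% of retained introns and the first 7.37%, where an even spread over positions would give 6.66% for each.

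The retained-intron transcripts were long, mostly rare and mostly seen in 1 assembly. Their median length was 4555.5 nt against 2814 nt for the 31818 transcripts that match a reference transcript and 3789 nt for the other transcripts of their genes. They had a median of 7 counts over the 8 libraries together, 3885 had at least 10 and 386 at least 50. None carried a reference transcript identifier. Only 73 were held by the assemblies of all 4 groups, and 8809 (88.8%) by 1 alone, against 36.4% of the transcripts that match the reference. Of those 8809, the ectoderm assembly alone held 4218 (47.9%), mesoderm 1938 (22.0%), endoderm 1420 (16.1%) and hPSC 1233 (14.0%). A single exon made up 749 (7.55%) of the retained-intron transcripts. Most host genes (2678) had 1 such transcript and 405 had 5 or more, up to 59 in the STAG3L5P-PVRIG2P-PILRB read-through locus.

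Class codes m and n leave out transcripts that match a retained-intron transcript already in the annotation. A further 2020 transcripts matched a GENCODE 29 transcript of the type retained intron, and they took 1.13% and 1.18% of counts in ectoderm and 1.08% and 1.12% in mesoderm, but 0.791% and 0.661% for hPSC and 0.762% and 0.731% for endoderm. Ectoderm and mesoderm libraries were thus above those of hPSC and endoderm here too, although the groups as a whole did not pass (exact permutation test of the F statistic, p = 0.0571).

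Retained-intron transcripts took the largest share of counts in ectoderm. They made up 3.06% and 3.28% of all counts in the ectoderm libraries and 2.32% and 2.43% in mesoderm, but only 1.91% and 1.62% for hPSC and 1.61% and 1.62% for endoderm. Both ectoderm libraries were above both mesoderm libraries, and these above the other four, whose values lay close together. An exact permutation test, over the 105 ways to form 4 pairs of libraries, gave p = 0.00952 among groups (n = 2 per group). It is the smallest value this design allows, and stayed 0.00952 after Benjamini-Hochberg adjustment over 3 share measures. The transcripts were assembled from these same libraries, which the test leaves out of account. Those held by the ectoderm assembly alone took 1.49% and 1.60% of ectoderm counts against 0.565% and 0.487% for hPSC. With transcripts of at least 2 assemblies only, the share was 0.624% and 0.680% in ectoderm and 0.485% and 0.416% for hPSC. The range of the group means, from endoderm to ectoderm, was then 0.286 percentage points in place of 1.56.

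The share of the counts of the host genes, which removes differences in how strongly those genes are expressed as a set, ranged less. Its mean reached 16.9% ± 0.356 (SD, n = 2) for ectoderm, 14.6% ± 0.445 in mesoderm, 14.1% ± 0.207 in endoderm and 13.2% ± 0.164 in hPSC (exact permutation test, p = 0.00952, adjusted p = 0.00952). The mesoderm and endoderm libraries nearly met, at 14.3% and 14.9% against 14.0% and 14.3%. With each of the 382 host genes with at least 20 counts in every library weighted equally, the mean share was 13.9% ± 0.998 in ectoderm, 11.7% ± 0.734 in mesoderm, 9.94% ± 0.107 in endoderm and 9.43% ± 0.292 in hPSC (exact permutation test, p = 0.00952, adjusted p = 0.00952). The ectoderm excess in host-gene share was lost when each group was counted in its own assembly, where hPSC was highest and mesoderm lowest (range of the group means 1.84 percentage points, exact permutation test, p = 0.0762). The host genes then differed between groups, since the ectoderm assembly held 5062 retained-intron transcripts and that of hPSC 1753. As a share of all counts, ectoderm was highest there too (2.52% and 2.71%, against 1.06% to 1.79% in the other groups). In those assemblies the unweighted share did not set ectoderm apart from mesoderm either, at 9.90% and 10.9% against 9.66% and 11.1%.

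**Figure D1:**
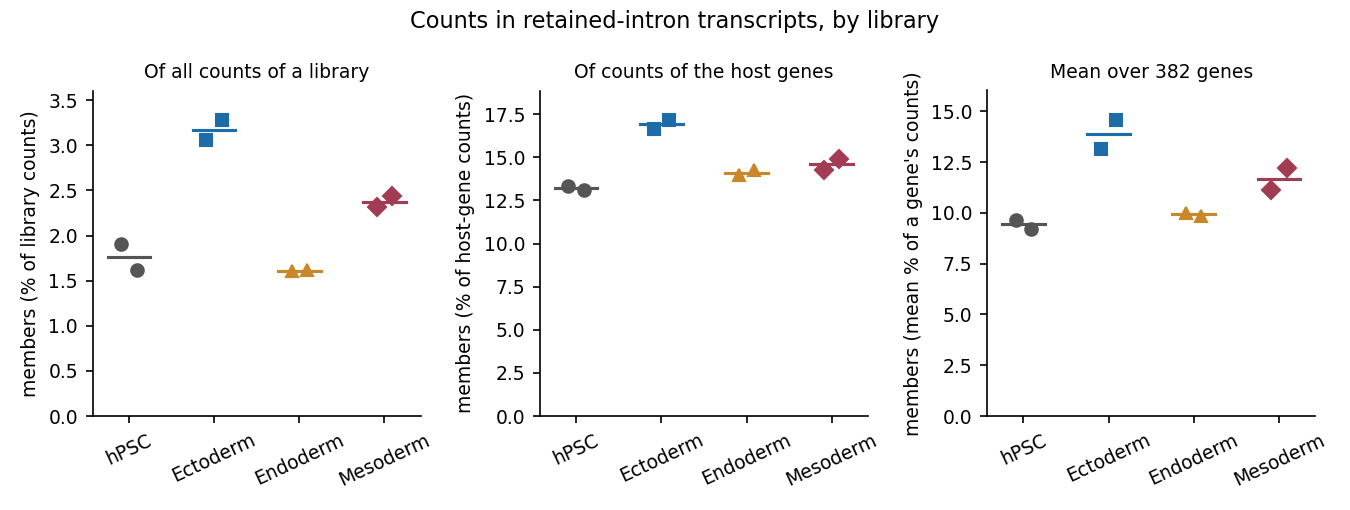
Percent of counts in retained-intron transcripts per library (points) with the mean of each group (lines, n = 2), as a share of all counts, of the counts of the 4618 host genes, and as an unweighted mean over 382 genes. Both ectoderm libraries lie highest in each panel, from 3.06% to 3.28% in the left panel.

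The retained-intron share was larger in the longer length classes. Retained-intron transcripts were 0.821% of the transcripts under 1000 nt, 4.60% at 1000 to 2000 nt, 8.21% at 2000 to 3000 nt, 11.4% at 3000 to 5000 nt and 14.5% above 5000 nt, and ectoderm libraries had the most reads in the longest class (28.4% and 31.3%, against 20.9% and 21.9% in mesoderm and 11.2% to 15.5% in hPSC and endoderm). Within that longest class the retained-intron share of counts was 6.60% in ectoderm, 6.10% in endoderm, 6.01% for hPSC and 5.84% in mesoderm (exact permutation test, p = 0.0952, adjusted over 5 classes p = 0.119). At 3000 to 5000 nt the group means ran from 2.09% to 2.46% (exact permutation test, adjusted p = 0.119). The widest relative gap was at 1000 to 2000 nt, where the mean share was 0.619% in ectoderm and 0.533% in mesoderm, but 0.306% for hPSC and 0.277% for endoderm (exact permutation test, p = 0.0286, adjusted p = 0.119). At 2000 to 3000 nt the means were 1.54%, 1.45%, 1.04% and 0.960% in the same order (exact permutation test, p = 0.0571, adjusted p = 0.119). No class passed the adjusted test. With every library weighted to 1 common length distribution over 20 length classes, an alternative added after the data were seen, the library share was 2.40% and 2.41% in ectoderm, 2.23% and 2.28% in mesoderm, 2.11% and 2.27% for endoderm and 2.19% and 2.07% for hPSC. The range of the group means was then 0.270 percentage points in place of 1.56, with p = 0.0762 in the exact permutation test.

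**Figure D2:**
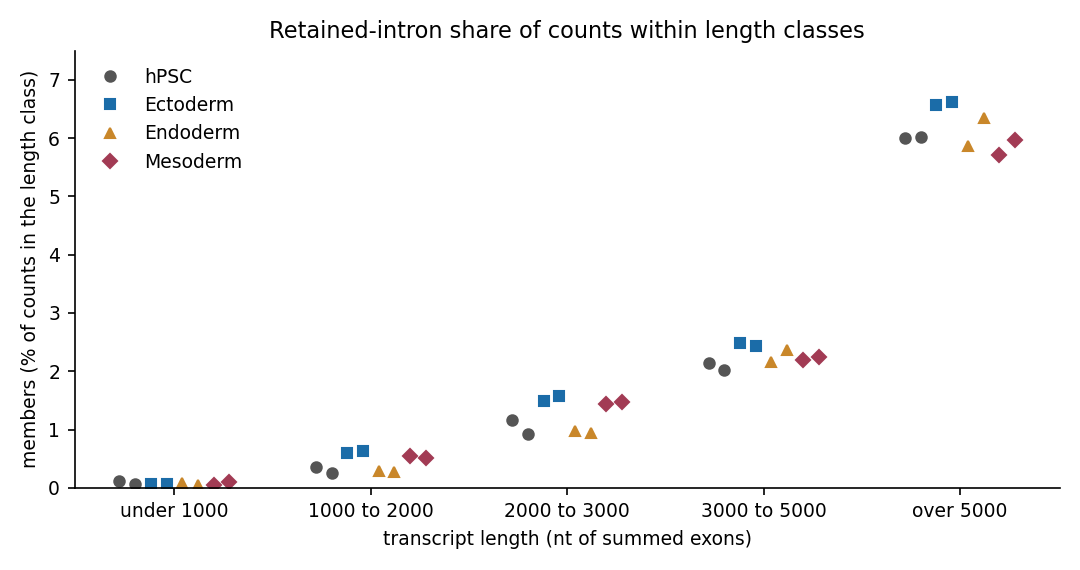
Percent of the counts in each transcript length class (nt of summed exons) that fall in retained-intron transcripts, 1 point per library. The share goes from under 1% below 2000 nt to about 6% above 5000 nt in every group, and ectoderm and mesoderm stand above hPSC and endoderm at 1000 to 3000 nt.

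The shares of single introns gave the same order. For 524 introns with at least 20 counts in every library, reads of the gene that kept the intron were set against reads that spliced it. The median percentage retained was 12.4% and 13.6% in ectoderm, 9.48% and 9.43% in mesoderm, 8.29% and 7.76% for endoderm and 7.38% and 7.41% for hPSC. The group mean was highest in ectoderm for 251 introns, in mesoderm for 108, in endoderm for 103 and in hPSC for 62. Since 47.9% of the single-assembly transcripts came from the ectoderm assembly, introns kept by transcripts of at least 2 assemblies were also viewed alone: of 99, the ectoderm mean was highest for 51, mesoderm for 23, endoderm for 15 and hPSC for 10. Among introns over 300 nt, ectoderm was highest for 185 of 342, and among those of at most 300 nt for 66 of 182, where endoderm followed with 52.

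Host genes were more often protein-coding (83.6%) than all genes of the table (71.1%), and their functions were uneven. Counted by symbol, 4606 of 21103 genes (21.8%) had a retained-intron transcript. Mitotic spindle and kinesin genes (25 of 52, 48.1%) and chromatin modifiers (43 of 94, 45.7%) had one most often among the larger lists, followed by DNA repair and replication genes (23 of 76, 30.3%), ZNF zinc finger genes (140 of 486, 28.8%) and extracellular matrix genes (20 of 71, 28.2%). Cytoplasmic ribosomal protein genes were at the other end (4 of 83, 4.82%), with proteasome subunits (4 of 47, 8.51%), hnRNP proteins (3 of 27, 11.1%), nuclear respiratory chain genes (11 of 98, 11.2%) and aminoacyl-tRNA synthetases (3 of 26, 11.5%). Among genes with at least 200 counts, the ribosomal list had 4 of 80, the DNA repair list 12 of 55 (21.8%), the ZNF list 27 of 83 (32.5%), the spindle and kinesin list 10 of 30 (33.3%) and the chromatin list 27 of 71 (38.0%), against 23.4% of all such genes. The spindle list was thus no longer above the chromatin list. These are counts without a test, and gene length and intron number were not compared between the lists.

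**Figure D3:**
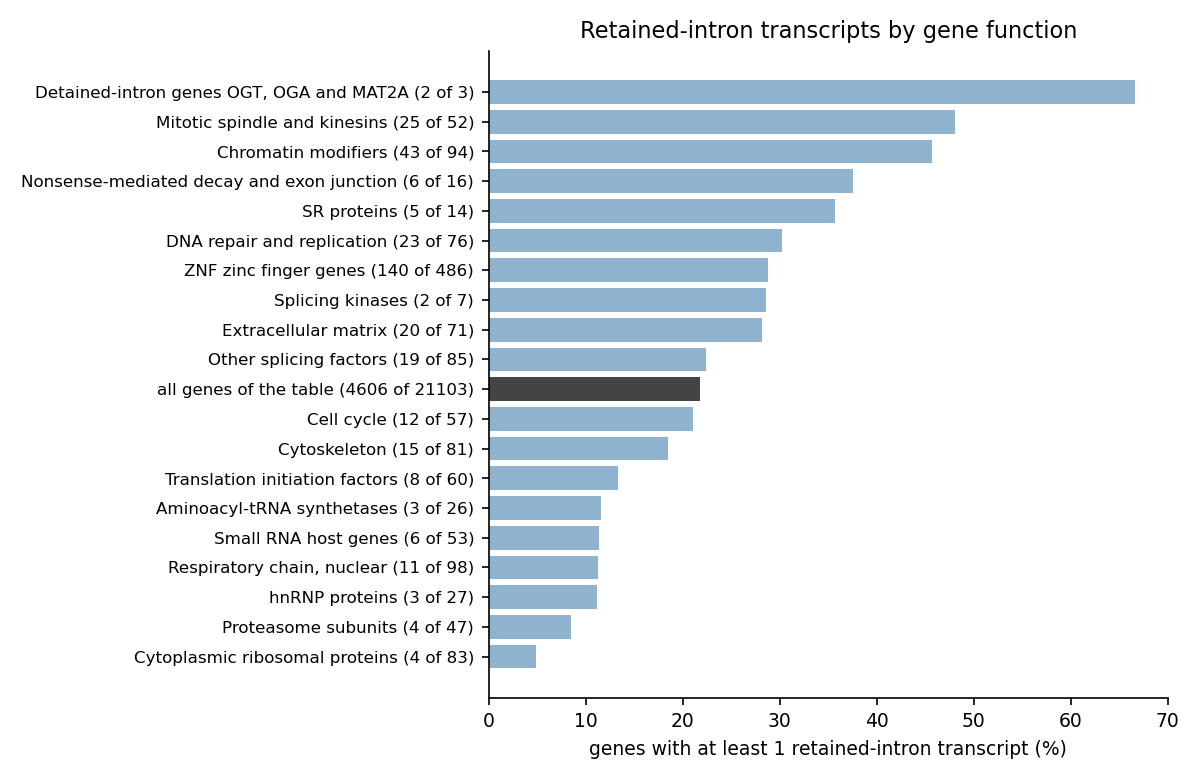
Percent of the genes of each list with at least 1 retained-intron transcript (bars, counts in brackets), with all genes of the table as the dark bar. Spindle, chromatin and SR protein genes lie above the 21.8% of all genes, and ribosomal, proteasome and hnRNP genes below it.

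By expression the lists differed as well. Each share pools all genes of a list, so it also moves when genes with a retained-intron transcript change in expression. Over all genes of the table, the ectoderm share was 3.19% ± 0.154 and the mesoderm share 2.38% ± 0.0850. Those of hPSC and endoderm were 1.78% ± 0.202 and 1.62% ± 0.00677 (SD, n = 2 each), so a list can also move with this general difference. In SR protein genes, which guide the choice of splice sites, retained-intron transcripts took 14.8% ± 0.465 of the counts in ectoderm and 10.3% ± 1.08 in mesoderm, against 3.90% ± 0.0244 in hPSC and 4.35% ± 0.670 in endoderm (SD, n = 2 each). Without SRSF5, the gene with most of these counts, the shares were 5.42% ± 0.491, 5.65% ± 0.437, 2.00% ± 0.302 and 2.41% ± 0.714 in the same order, a calculation added after the data were seen. Of the 14 SR genes, 5 had a retained-intron transcript. SRSF5 as a gene had 62 and 84 counts in hPSC but 632 and 535 in the deeper ectoderm libraries. None of 5 SR transcripts passed in any layer when tested relative to the other transcripts of its gene (edgeR diffSpliceDGE). The other splicing lists did not share the high SR values. Other splicing factors (19 of 85 genes with a retained-intron transcript, 22.4%) had 1.14% ± 0.160 in ectoderm and 0.485% ± 0.0367 to 0.852% ± 0.100 elsewhere. The hnRNP genes had 0.366% ± 0.0159 in ectoderm and 0.118% ± 0.0345 to 0.139% ± 0.00564 elsewhere. Both lists lay below all genes in every group. Spindle and kinesin genes had 5.02% ± 0.609 in mesoderm, 4.21% ± 0.164 in ectoderm, 3.42% ± 0.161 in endoderm and 2.92% ± 0.0222 in hPSC. Extracellular matrix genes stood at 0.979% ± 0.0768 in mesoderm and 2.47% ± 0.0546 to 3.01% ± 0.152 in the other groups. Small RNA host genes had the highest share in hPSC, at 2.10% ± 0.200 against 0.856% ± 0.150 to 1.09% ± 0.181. In OGT, OGA and MAT2A, the 3 genes listed for detained introns, the mean was highest in hPSC, at 37.5% ± 11.7, against 29.6% ± 1.5 in ectoderm, 24.7% ± 3.52 in mesoderm and 18.5% ± 0.466 in endoderm. The hPSC libraries stood at 29.2% and 45.8%, so that they overlapped those of ectoderm at 30.6% and 28.5%. Only 2 of the 3 genes, OGT and MAT2A, had a retained-intron transcript. The counts of OGA therefore entered the total alone, and this pooled share also moves with the level of OGA. In the most abundant retained-intron transcript of OGT and of MAT2A, described below, the mean share of the gene was highest in ectoderm. Chromatin modifiers stayed between 2.73% ± 0.177 and 3.18% ± 0.301. The ribosomal protein genes never passed 0.0841% in a library.

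For the tests of single transcripts only 290 of the 9924 retained-intron transcripts passed the filter on low counts, and a transcript could pass through the group where it is high. Of these, 136 passed edgeR's quasi-likelihood test (Benjamini-Hochberg adjusted p under 0.05) in ectoderm against hPSC, 110 higher and 26 lower, which is 46.9% against 45.9% of all 12440 transcripts tested. The share called higher was 37.9% against 23.8% of all, and the median log2 fold change 1.09 against 0.01. In endoderm 64 passed (22.1% against 26.7% of all), 36 higher (12.4% against 13.1%) and 28 lower, with a median of -0.15 against -0.17. In mesoderm 87 passed (30% against 32.8% of all), 54 higher (18.6% against 16.5%) and 33 lower, with a median of 0.57 against 0.04. With the same 290 transcripts tested and 1 library left out, an alternative added after the data were seen, the mesoderm count was 57 without mesoderm repeat 1 and 51 without mesoderm repeat 2. The endoderm count was then 40 without either endoderm repeat, and the ectoderm count 90 without ectoderm repeat 1 and 86 without ectoderm repeat 2. With the filter applied anew, which let 428 to 527 retained-intron transcripts through, the mesoderm count was 139 without hPSC repeat 1 and 47 without mesoderm repeat 2. The 3 comparisons share the hPSC libraries. By list, 4 of 5 tested transcripts of SR protein genes and 7 of 10 of ZNF genes were higher in ectoderm. Of 8 tested transcripts of matrix genes, 6 were higher in mesoderm, 5 in endoderm and 4 in ectoderm. The pluripotency list had 3 tested transcripts, 2 of DNMT3B and 1 of PRDM14, of which 3 were lower in mesoderm, 2 in endoderm and 1 in ectoderm, where 16.3%, 13.6% and 22.1% of all transcripts tested were lower. These lists hold few tested transcripts, and SRSF5 and TRA2A each supply more than 1 of those in SR genes.

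Whether a retained-intron transcript changed relative to the other transcripts of its gene was tested with edgeR's diffSpliceDGE (Benjamini-Hochberg adjusted p under 0.05) for 235 of them. In ectoderm 7 passed, all higher, which is 2.98% against 1.26% of the 6986 transcripts tested (0.83% higher and 0.429% lower). These 7 transcripts were 4755 to 13753 nt long. Ectoderm libraries had 28.4% and 31.3% of reads on transcripts above 5000 nt, against 15.5% and 13.7% for hPSC. The part of length in these calls was not tested. In endoderm 4 passed (1.7% against 1.1% of all), of which 3 were higher (1.28% against 0.658%) and 1 lower (0.426% against 0.444%). In mesoderm 2 passed (0.851% against 1.65% of all), both higher, where 0.873% of all were higher and 0.773% lower. Unadjusted p-values under 0.05 were found for 39, 23 and 27 of the 235 in ectoderm, endoderm and mesoderm. The same count was not made for all 6986 transcripts, so no excess can be read from these numbers. The counts moved when 1 library was left out and the same 235 transcripts were tested. The ectoderm count was then 1 without ectoderm repeat 1, 0 without ectoderm repeat 2, 13 without hPSC repeat 1 and 3 or 4 otherwise. The endoderm count was 0 without either endoderm repeat, 1 without hPSC repeat 1 or either ectoderm repeat, 2 without hPSC repeat 2 and 4 without either mesoderm repeat. The mesoderm count was 4 without hPSC repeat 1, 1 without either endoderm repeat and 0 otherwise. With the filter applied anew, 353 to 424 retained-intron transcripts were tested, and the count was 0 in ectoderm without either ectoderm repeat and 14 without hPSC repeat 1. Over all alternatives run for each call, edgeR or limma still made that of CPSF6 in 16 of 22, LMNA in 15 of 20, SPHK2 in 15 of 21 and CPNE1 in 14 of 21. The others were made in fewer than 8 of 20 to 22, among them CPZ in 3 of 20 (highest adjusted p = 0.718), L3MBTL2 in 4 of 21 (0.769) and BUD23 in 6 of 21 (0.666) for ectoderm and 3 of 20 (0.932) for mesoderm.

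SRSF5, an SR protein that regulates splicing, had the most abundant retained-intron transcript among the splicing genes. Its transcript hEDT_00026146 (chr14:69767142-69772004, plus strand, 7 exons) keeps the 1215-nt intron whose start is printed above, which lies between 2 coding exons. The transcript had 16 and 18 counts in hPSC against 272 and 227 in ectoderm, with 12 and 8 in endoderm and, in mesoderm, 39 and 50. Its share of the gene was 25.8% and 21.4% in hPSC against 43.0% and 42.4% in ectoderm, with 27.9% and 17.8% in endoderm and, in mesoderm, 39 of 130 and 50 of 129 gene counts. The ectoderm and mesoderm libraries lay above those of hPSC and endoderm. Its level was higher in ectoderm by 2.65 ± 0.35 (log2 fold change ± SE, edgeR, adjusted p = 4.44e-05). In mesoderm its level was higher by 1.35 ± 0.37 (edgeR, adjusted p = 0.0106), which did not pass without mesoderm repeat 2 (edgeR, adjusted p = 0.0924). The share itself did not pass the test of transcript choice in ectoderm (edgeR diffSpliceDGE, adjusted p = 0.697). Counted over all transcripts of the gene, this intron was kept in 53.2% and 53.6% of reads in hPSC against 87.8% and 90.8% in ectoderm, with 65.9% and 46.7% in endoderm and, in mesoderm, 89.7% and 88.3%. Among the reads that keep it are those of a class j transcript (251 counts) and of annotated forms (102 and 96 counts), so that classes m and n hold only some of the SRSF5 reads with this intron.

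**Figure D4:**
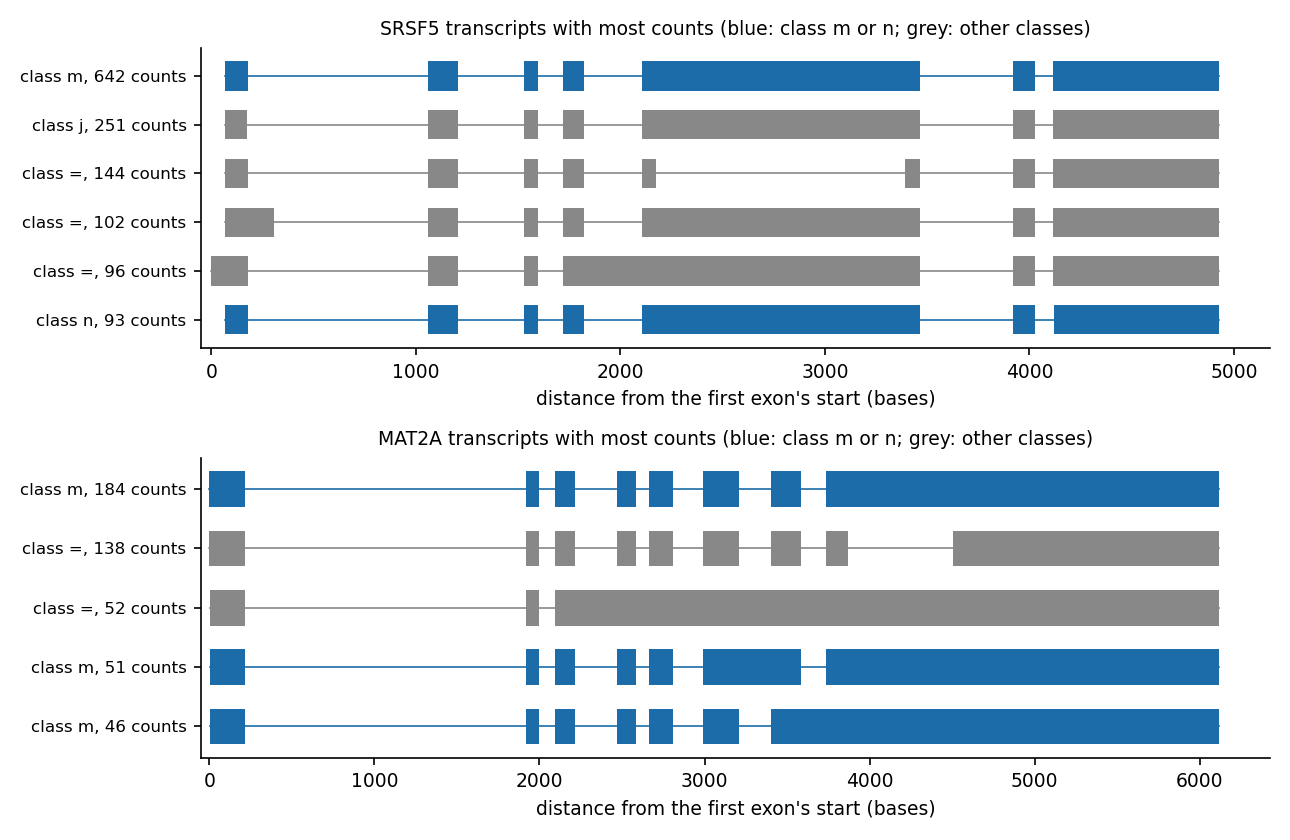
Exons (boxes) and introns (lines) of the SRSF5 transcripts (upper panel) and MAT2A transcripts (lower panel) with most counts over the 8 libraries, with the distance in bases from the start of the first exon, and retained-intron transcripts in blue. The SRSF5 transcript with 642 counts and that with 251 counts keep the same intron, which the transcript with 144 counts removes.

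MAT2A transcript hEDT_00052036 (chr2:85539163-85545281, plus strand) keeps the last, 635-nt intron and was held by all 4 assemblies. Its share of the gene's counts was 33.3% and 38.9% in hPSC against 42.4% and 67.0% in ectoderm, with 16.1% and 13.6% in endoderm and, in mesoderm, 20.8% and 20.6%. Both endoderm and both mesoderm libraries were below hPSC, and ectoderm above it. None of these share differences passed the test of transcript choice (edgeR diffSpliceDGE, adjusted p = 0.144 in endoderm, 0.583 in mesoderm and 1.0 in ectoderm). The intron was kept in 79.5% and 72.2% of reads in hPSC against 86.8% and 88.3% in ectoderm, with 32.3% and 27.3% in endoderm and, in mesoderm, 50.0% and 44.1%. A second transcript keeps the 191-nt intron printed above as well, with 7 and 6 counts in hPSC against 19 and 9 in ectoderm, with 1 and 1 in endoderm and, in mesoderm, 6 and 2.

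OGT transcript hEDT_00095033 (chrX:71533101-71575892, plus strand, 8709 nt) keeps a 3271-nt intron. Its share was 21.9% and 20.5% in hPSC against 38.0% and 36.9% in ectoderm, with 11.5% and 6.25% in endoderm and, in mesoderm, 30.8% and 33.3%. No library overlapped between groups. The share difference did not pass in any layer (edgeR diffSpliceDGE, adjusted p = 0.648 in ectoderm), whereas its level was higher in ectoderm by 1.82 ± 0.43 (log2 fold change ± SE, edgeR, adjusted p = 0.00276). Reads that keep the intron were 43.8% and 47.7% in hPSC against 71.3% and 67.7% in ectoderm, with 34.8% and 21.4% in endoderm and, in mesoderm, 69.4% and 69.7%, the same split into ectoderm and mesoderm above hPSC and endoderm as in SRSF5.

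Other splicing genes had fewer counts. RBM4B, an RNA-binding regulator of splicing, had a retained-intron share of 38.6% and 45.1% in ectoderm, against 15.0% for each hPSC library, 12.8% and 17.9% for endoderm and 18.2% and 26.7% for mesoderm (edgeR diffSpliceDGE, adjusted p = 0.230 in ectoderm). SRSF11 had a transcript with a retained 6582-nt intron at 8.82% and 22.2% of hPSC counts, 7.65% and 10.3% in ectoderm and 6.25% and 7.14% in mesoderm. Endoderm had none among 16 and 8 gene counts, too few to show shares of this size as lower. HNRNPH1, an hnRNP protein, had 11.5% and 17.4% in hPSC against 16.9% and 16.0% in ectoderm, with 3.12% and 4.17% in endoderm and, in mesoderm, 3.23% and 6.06%. Its endoderm and mesoderm libraries lay below the others, on 1 or 2 counts each.

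CPSF6, a subunit of the complex that chooses mRNA cleavage and polyadenylation sites, had the smallest adjusted p but one among the ectoderm choice calls. Its transcript hEDT_00022953 (chr12:69239569-69274358, plus strand, 13533 nt) had 8 and 3 counts in hPSC against 129 and 91 in ectoderm, with 6 and 5 in endoderm and, in mesoderm, 12 and 12. The share of the gene's counts was 10.5% and 3.19% in hPSC against 36.5% and 32.2% in ectoderm, with 9.09% and 13.2% in endoderm and, in mesoderm, 11.3% and 11.4%. Only the ectoderm libraries stood apart. Relative to the other CPSF6 transcripts it was higher in ectoderm by 2.37 ± 0.46 (log2 ± SE, edgeR diffSpliceDGE, adjusted p = 0.00817), and its level by 3.07 ± 0.45 (edgeR, adjusted p = 9.63e-05). The choice call was not made without hPSC repeat 2, ectoderm repeat 1 or ectoderm repeat 2, where the adjusted p from edgeR rose to at most 0.217.

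BUD23, a methyltransferase of ribosomal RNA, was the gene called in 2 layers. Its transcript hEDT_00084140 (chr7:73683597-73698212, plus strand) took 11.8% and 7.55% of the gene's counts in hPSC against 33.3% and 41.0% in ectoderm, with 17.6% and 17.1% in endoderm and, in mesoderm, 6 of 20 and 14 of 33 gene counts. It was higher by 2.07 ± 0.49 in ectoderm (log2 ± SE, edgeR diffSpliceDGE, adjusted p = 0.0320) and by 2.11 ± 0.55 in mesoderm, where the adjusted p from edgeR of 0.049999 was at the threshold. Ectoderm and mesoderm did not overlap hPSC, on 20 to 66 gene counts per library. CPNE1, a calcium-dependent membrane-binding protein whose locus overlaps RBM12 on the same strand, had 21.9% and 23% in ectoderm, against 6.31% and 2.82% for hPSC, 6.67% for each endoderm library and 9.43% and 3.57% for mesoderm. The ectoderm rise was 2.43 ± 0.52 (log2 ± SE, edgeR diffSpliceDGE, adjusted p = 0.0115), for the transcript that holds the 185-nt intron printed above. CPZ, a secreted carboxypeptidase, went from 1 count in 42 gene counts in hPSC to 22.6% and 22.2% of the gene's counts in ectoderm (edgeR diffSpliceDGE, adjusted p = 0.0425). The CPZ call was lost with no filter, with the replicate block and without either ectoderm repeat.

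The other ectoderm calls, named after their values were seen, were in LMNA and DNMT3B. LMNA encodes the nuclear lamins A and C, and its single-exon transcript of 11620 nt had 3 and 0 counts in hPSC against 13 and 17 in ectoderm, with 11 and 12 in endoderm and, in mesoderm, 9 and 10. The gene itself had 121 and 66 counts in hPSC against 110 and 83 in ectoderm, with 812 and 669 in endoderm and, in mesoderm, 522 and 427. The share was therefore 11.8% and 20.5% in ectoderm and at most 2.48% in any other library (edgeR diffSpliceDGE, adjusted p = 0.00464 in ectoderm). The 2689-nt intron assigned to it was removed exactly by no other LMNA transcript with counts. DNMT3B, a de novo DNA methyltransferase of pluripotent cells, had 2 called transcripts. The one of 13753 nt, which keeps 7 introns, took 5.24% and 7.12% in hPSC against 18.7% and 20.1% in ectoderm, with 13.5% and 18.6% in endoderm and, in mesoderm, 12.5% and 23.1% (edgeR diffSpliceDGE, adjusted p = 0.0435 in ectoderm). The one of 6570 nt took 2.36% and 7.12% in hPSC and 21.2% and 12.2% in ectoderm (edgeR diffSpliceDGE, adjusted p = 0.0284). All 3 layers had larger DNMT3B shares than hPSC in the longer transcript, while the gene had 382 and 365 counts in hPSC and 26 to 52 in endoderm and mesoderm.

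In endoderm the calls were in L3MBTL2, TRPC4AP, ABCD4 and SPHK2. L3MBTL2, a chromatin reader of a Polycomb complex, had 2.50% and 4.04% in hPSC, 19.1% and 14.0% in endoderm, 4.35% and 3.57% in ectoderm and 2.63% and 0% in mesoderm (2.27 ± 0.54, log2 ± SE, edgeR diffSpliceDGE, adjusted p = 0.0329). This call was lost with no filter, with the replicate block, with limma and without either hPSC or either endoderm repeat. TRPC4AP, an adaptor of a ubiquitin ligase, had 0.649% and 2.60% in hPSC, 10.9% and 10.4% in endoderm, and 4.29% to 6.77% in ectoderm and mesoderm (2.94 ± 0.69, edgeR diffSpliceDGE, adjusted p = 0.0243). ABCD4, a transporter needed for vitamin B12 release from lysosomes, had 14 and 13 counts in endoderm, against 1 and 0 in hPSC, none in ectoderm and 1 and 3 in mesoderm, of 68 to 233 gene counts (edgeR diffSpliceDGE, adjusted p = 0.0356 in endoderm). SPHK2, a sphingosine kinase, was the only retained-intron transcript called lower, in endoderm. Its share was 45.7% and 16.7% in hPSC, 5.98% and 5.56% in endoderm, 27.9% and 15.9% in ectoderm and 17.9% and 38.2% in mesoderm (-3.08 ± 0.67, edgeR diffSpliceDGE, adjusted p = 0.0157). Its counts were 21 and 8 in hPSC and 11 and 14 in endoderm, while the gene had 46 and 48 against 184 and 252 counts. The SPHK2 call was lost without hPSC repeat 1 and without either endoderm repeat. In mesoderm MTFR1L, a regulator of mitochondrial shape, went from 6.12% and 1.52% in hPSC to 18.9% and 35.0% (2.78 ± 0.63, edgeR diffSpliceDGE, adjusted p = 0.0203).

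**Figure D5:**
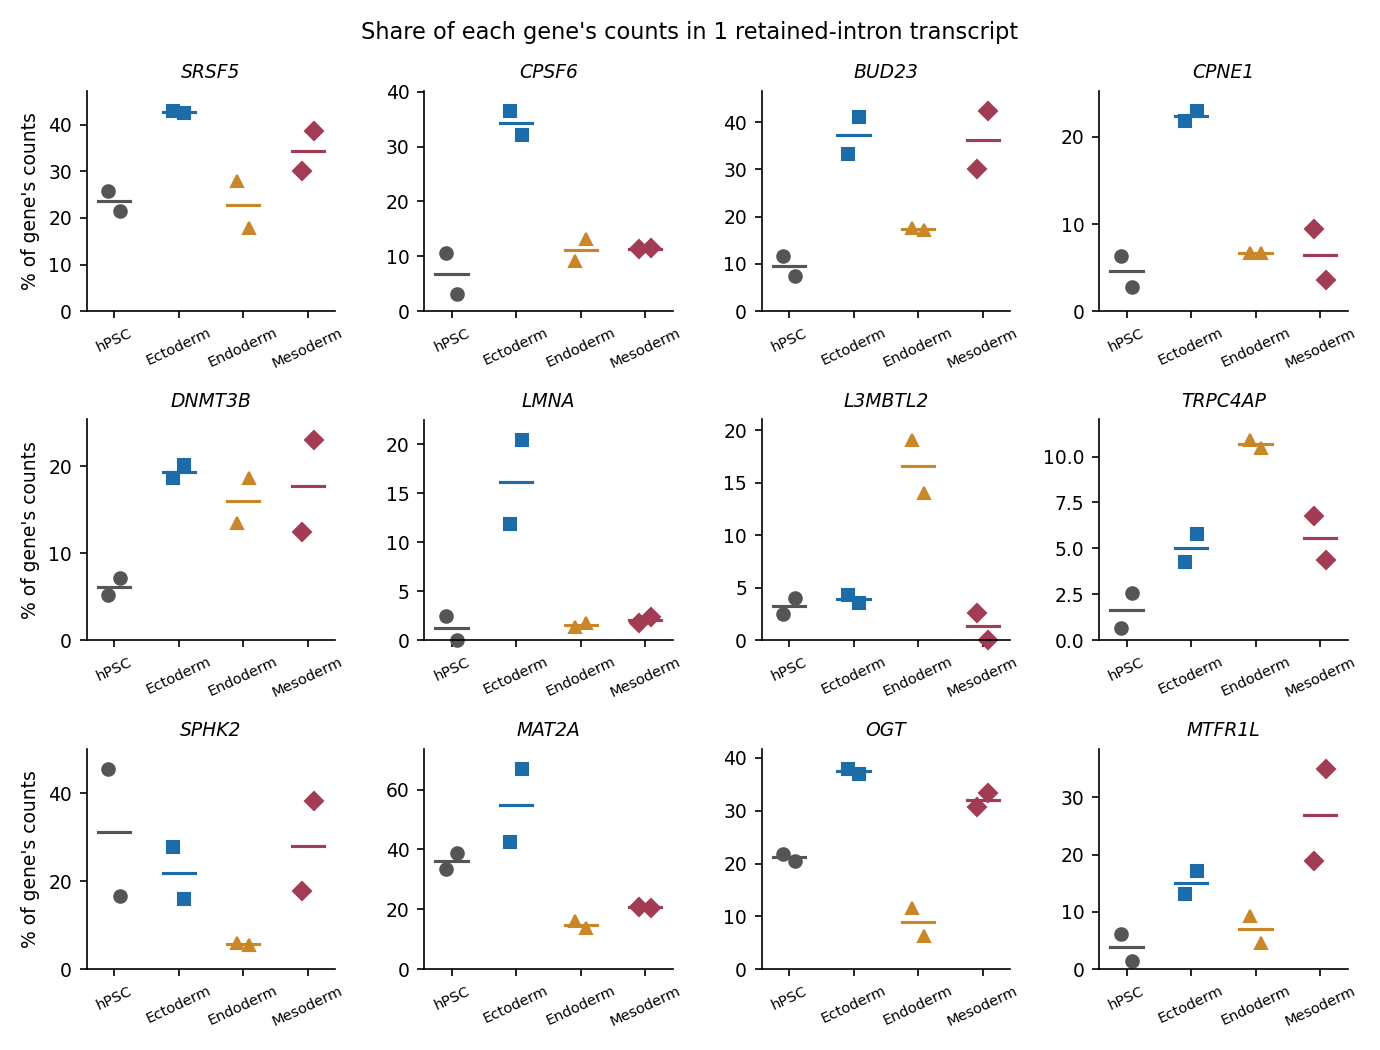
Share of a gene's counts in 1 retained-intron transcript, per library (points) with the group mean (lines, n = 2), for 12 of the transcripts described. CPSF6, CPNE1 and LMNA stand apart in ectoderm, L3MBTL2 and TRPC4AP in endoderm, and OGT and SRSF5 are higher in ectoderm and mesoderm than in the other groups.

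The most abundant retained-intron transcripts outside the splicing genes passed no test of transcript choice. ACADVL, the mitochondrial enzyme that starts the breakdown of very long fatty acids, had 2 of them. The one with the 95-nt intron printed above (hEDT_00037539) had 15 and 3 counts in hPSC against 122 and 89 in ectoderm, with 3 and 3 in endoderm and, in mesoderm, 74 and 80. Its level was higher in ectoderm by 2.32 ± 0.46 (log2 fold change ± SE, edgeR, adjusted p = 0.000945) and in mesoderm by 3.06 ± 0.46 (edgeR, adjusted p = 0.000135). Its share of the gene's counts was 10.5% and 10.0% in hPSC against 22.0% and 20.6% in ectoderm, with 5.45% and 5.26% in endoderm and, in mesoderm, 12.7% and 16.4%, and the groups did not overlap, although no choice test passed (edgeR diffSpliceDGE, adjusted p = 0.880 in ectoderm). Over all ACADVL transcripts the intron did not share this order, with 60.0% and 52.6% of reads keeping it in endoderm, 41.3% and 44.1% in ectoderm, 33.6% and 46.7% for hPSC and 30.5% and 39.7% for mesoderm. For the other ACADVL transcript, hEDT_00037540, the shares of the groups did overlap. Its endoderm libraries, at 12.7% and 1.75%, lay on either side of the hPSC libraries (8.39% and 6.67%). Both mesoderm libraries (16.4% each) fell between the ectoderm values of 11.9% and 18.5%. MDK, the growth factor midkine, had 24 and 11 counts in hPSC and 96 and 80 in mesoderm, higher by 2.29 ± 0.43 (edgeR, adjusted p = 0.000839), at 13.6% and 7.97% of the gene in hPSC and 12% and 14.7% in mesoderm. PROCA1 had 13 and 39 counts in hPSC and 163 and 219 in endoderm, higher by 3.02 ± 0.43 (edgeR, adjusted p = 0.00011). Its share lay between 39.4% and 54.9% in all 8 libraries, and no whole reference intron was found inside its exons. RHOT2, a GTPase that anchors mitochondria to motor proteins, had its 82-nt intron in a transcript with 8.55% and 5.31% in hPSC against 18.7% and 16.6% in ectoderm, with 11.6% and 11.2% in endoderm and, in mesoderm, 14% and 12% (edgeR diffSpliceDGE, adjusted p = 0.108 in ectoderm). Over all its transcripts this intron was kept in 57.8% and 57.4% of reads in ectoderm, 47.3% and 49.3% in mesoderm, 40.5% and 26.5% for hPSC and 25.9% and 29.6% for endoderm. TRO, the MAGE-domain gene trophinin, had the highest summed CPM of all of them, with a share of 30.8% and 35.6% in hPSC against 29% and 28.9% in ectoderm, with 32.1% and 34.6% in endoderm and, in mesoderm, 15.0% and 13.7% (edgeR diffSpliceDGE, adjusted p = 0.132 in mesoderm). UBE2D3, a ubiquitin-conjugating enzyme, was lowest in ectoderm, with 11.7% and 25.5% in hPSC against 9.23% and 5.91% in ectoderm, with 22.7% and 18.8% in endoderm and, in mesoderm, 17.2% and 16.5% (edgeR diffSpliceDGE, adjusted p = 0.136 in ectoderm).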

How the data were processed

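The data were 8 PacBio long-read RNA libraries of the H1 line, grouped by the titles' cell type. The authors deposited whole raw counts per transcript of a combined StringTie assembly, with no normalization (per the file headers). The authors deposited whole numbers in all 8 columns, so the rounding that expected counts need was not applied. Minimap2, StringTie and GRCh38 are named in the submitters' processing notes, and versions, counter, strand use and annotation release are not given in the sources used here. Of 27176 multi-exon transcripts that match the reference and are listed in GENCODE 29, 26254 (96.61%) have the same introns there. No genome sequence was used, so intron sequence comes from GENCODE 29 exons that cover an intron.

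Shares are member counts over library or gene counts. A retained intron is one of the reference transcript gffcompare paired with the transcript (8810 from GENCODE 29, 394 from an assembled match, 491 from other matching transcripts of the gene; 229 had none), lying inside an exon; in 890 cases an overlapping intron of the gene with more counts replaced it. Intron percentages compare transcripts of the gene that keep and that splice it. Shares were compared by an exact permutation test of F over 105 partitions, with p the share of partitions whose F was at least the observed one. The tests of transcripts used edgeR 4.0.16 with R 4.3.3 (TMM, filterByExpr with min.count 10, glmQLFit and glmQLFTest over 8 libraries, diffSpliceDGE by gene for transcript choice, Benjamini-Hochberg at 0.05). DESeq2 1.42.0 and limma 3.58.1 were alternatives, with other filters, scaling, members, assemblies and left-out libraries. Both edgeR tests were first tested on simulated data with known changes.

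Named transcripts were the 12 with the largest CPM, up to 4 per layer and direction among choice calls whose shares did not overlap and whose gene had at least 30 counts in both groups, and the 12 with most counts in splicing, decay and detained-intron genes. The members and lists were chosen with earlier results of these data known. Repeat numbers did not pair the libraries. A count of 0 allows up to 3 counts, which covers counting error only. Genes of near-identical copies, read-through loci and overlapping genes can share reads.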

Additional observations from a re-analysis of the deposited data

How the results depend on the processing

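Ectoderm had the highest mean of all 3 shares under every alternative but one, although in each group's own assembly its unweighted share (10.4% ± 0.74) overlapped that of mesoderm (10.4% ± 1.04), and the tests kept their side of the threshold except as follows. The host-gene share in each group's own assembly, over host genes that differ between assemblies, was highest in hPSC (range of group means 1.84). Class n alone gave ranges of 2.04 for host genes and 2.00 unweighted (exact permutation tests, p = 0.0857 and 0.105), and the common length distribution gave 0.270 for the library share. Among transcripts under 1000 nt the highest group changed without hPSC replicate 1 (0.00981) and without mesoderm replicate 1 (0.0278), over a span of 0.00981 to 0.0499. With members of at least 2 assemblies the range was 0.271 at 2000 to 3000 nt, which passed, and 0.311 above 5000 nt, where hPSC was highest. Leaving out 1 library gave ranges of 0.534 to 0.618 at 2000 to 3000 nt, 0.309 to 0.436 at 3000 to 5000 nt and 0.628 to 0.884 above 5000 nt. The unadjusted test then passed without either hPSC library or ectoderm replicate 1 in the first of these classes, and without endoderm replicate 1 in the others. With no filter beyond a count above 0, 9924 members were tested for level. The numbers called, in the order ectoderm, endoderm, mesoderm, were then 398, 102 and 138. With a minimum count of 20 they were 40, 21 and 34 of 65 tested, and with DESeq2 55, 23 and 39. These counts rest on different numbers tested, and the share of all transcripts called in each setting was not set beside them. The fit on 2 groups gave 54 for mesoderm level. For choice the numbers called were 4, 0 and 0 of 53 tested with a minimum count of 20, and 1 of 9611 for endoderm with no filter. For mesoderm they were 1 with DESeq2 size factors and 5 with limma's diffSplice. Fits of 2 groups gave 1 (ectoderm) and 0 (mesoderm). With 1 library left out, with the filter applied anew or with the same transcripts tested, they ran from 0 to 14, 0 to 4 and 0 to 7 for choice, and from 86 to 183, 37 to 89 and 47 to 139 for level; with the same transcripts alone from 0 to 13, 0 to 4 and 0 to 4, and from 86 to 132, 40 to 68 and 51 to 105. In the last of these fits ectoderm level gave 90 without ectoderm replicate 1, and mesoderm level 57 without mesoderm replicate 1. The lone library left in a group is assumed to vary like the others. The repeat numbers did not pair the libraries (correlations of same-number deviations from -0.031 to 0.124), and a replicate block gave 4, 1 and 1 choice calls and 122, 56 and 82 level calls. No named call changed direction under any of these alternatives; 657 of 877 refits of level calls and 107 of 272 of choice calls still passed. The cause of these changes was not tested. Most members have too few counts for a test, since 290 of 9924 passed the filter.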
